A study of Drosophila melanogaster with 3 samples.

Results

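Small nucleolar RNAs (snoRNAs) are short RNAs of the nucleolus that guide the chemical modification of ribosomal RNA. Box C/D snoRNAs guide the methylation of ribose and work with fibrillarin, whereas box H/ACA snoRNAs guide the conversion of uridine to pseudouridine and work with dyskerin. Most animal snoRNAs have no promoter of their own. They lie in introns of a host gene, often one for a ribosomal protein or for a non-coding U snoRNA host gene (Uhg), and are trimmed from the spliced-out intron of the host's transcript. A few, among them U3, which acts in the cutting of the ribosomal RNA precursor, are transcribed from promoters of their own.

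The snoRNA genes were taken as all genes whose symbol starts with snoRNA: in the annotation of Drosophila melanogaster, which gave 257 of the 18164 genes considered. They lay on 2R (93), 3L (49), 3R (44), 2L (40), X (30) and 4 (1). The prefix is left out below. By name they comprised 78 methylation guides (Me), 106 pseudouridylation guides (Psi), 15 orphan C/D and 9 orphan H/ACA snoRNAs with no named target, 3 U3 genes and 46 others. A snoRNA was called hosted when it lay wholly inside another gene on the same strand, and independent otherwise. There were 236 hosted and 21 independent snoRNAs. The hosts were 85 genes, of which 29 encode ribosomal proteins, 7 are Uhg genes and 49 are other genes. Some hosts overlap on the same strand, so 12 snoRNAs had 2 hosts and counted for both. Of the hosted snoRNAs, 216 lay in introns of every host transcript that spanned them, 6 in exons and 14 in an intron of some transcripts and an exon of others.

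Peaks came from chromatin immunoprecipitation and sequencing (ChIP-seq) with an antibody against green fluorescent protein (GFP) on whole embryos aged 0 to 14 h, of mixed sex, from a stable transgenic line that expresses CG15601 with GFP at its C-terminus. All 3 samples, numbered by the labels as biological replicates 1 to 3, belong to this 1 group. No control library and no group without the tagged protein was analysed here, so the part of background signal at promoters in the counts was not tested. The labels do not name the promoter that drives the transgene, and whole embryos mix all cell types. The lists were 1 of 6458 peaks that passed the irreproducible discovery rate (IDR), a threshold on how well peaks repeat, 1 of 30000 peaks from the pooled replicates, and 30000 peaks for each replicate. The IDR peaks are the strongest peaks of the pooled list, so a rank of 1 is the strongest peak in both lists. A gene was called bound when the summit of an IDR peak lay within 500 bp of one of its annotated transcription start sites, and the word means no more than that. The lists carry no read counts, so the sequencing depth behind a peak is unknown. Intervals are exact 95% binomial intervals that cover counting error over genes only.

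Peak summits of the CG15601-GFP ChIP lay at the promoters of most snoRNA hosts. Of the 85 hosts, 56 (65.9%, 95% interval 54.8 to 75.8%) were bound, against 4077 of 17907 genes other than snoRNA genes, a background of 22.8%. Among protein-coding genes the background was 26.7%, and among non-coding RNA genes other than snoRNAs it was 9.09%. In the pooled list, 69 hosts (81.2%) had a summit at a start site, against 43.8% of genes other than snoRNA genes. Among the strongest 6458 peaks of replicates 1, 2 and 3, the bound share of hosts was 63.5%, 67.1% and 65.9%, against 20.3%, 22.7% and 24.9% of genes other than snoRNA genes. The hosts lay above the other genes in all 3 lists, by 42.9 ± 1.72 percentage points (SD, n = 3; exact two-sided sign-flip permutation test over the lists, p = 0.25, the smallest p that 3 lists allow). Hosts had a median of 2 annotated start sites and protein-coding genes of 1. With the canonical start site alone, 62.4% of hosts and 20.7% of genes other than snoRNA genes had an IDR summit. When only IDR peaks found among the strongest peaks of both other replicates were kept, 31 hosts (36.5%) were bound without replicate 2 and 33 (38.8%) without replicate 3, against 12.4% and 12% of genes other than snoRNA genes.

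Ribosomal protein hosts had the highest bound share of the 3 host classes, close to that of the ribosomal protein genes that host no snoRNA. Of the 29 ribosomal protein hosts, 26 (89.7%, interval 72.7 to 97.8%) were bound, against 49 of the 57 ribosomal protein genes that host no snoRNA (86.0%, interval 74.2 to 93.7%). The intervals overlap over nearly their whole length, and the difference was not tested. Of the 7 Uhg genes, 4 were bound (57.1%, interval 18.4 to 90.1%), and all 7 had a summit in the pooled list. Of the 49 other hosts, 26 were bound (53.1%). The 45 protein-coding genes among these included 25 bound genes (55.6%, interval 40.0 to 70.4%), against 26.5% of the 13871 protein-coding genes that host no snoRNA. In replicates 1, 2 and 3 these 45 genes were bound in 51.1%, 55.6% and 60.0%, against 23.5%, 26.2% and 29.3% of protein-coding genes that host no snoRNA, so the ranges did not overlap. Hosts with 3 or more snoRNAs were bound in 18 of 25 cases (72.0%), hosts with 2 in 13 of 14 (92.9%) and hosts with 1 in 25 of 46 (54.3%). The bound share was highest in the middle class, so it did not increase steadily with the number of snoRNAs.

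**Figure D1:**
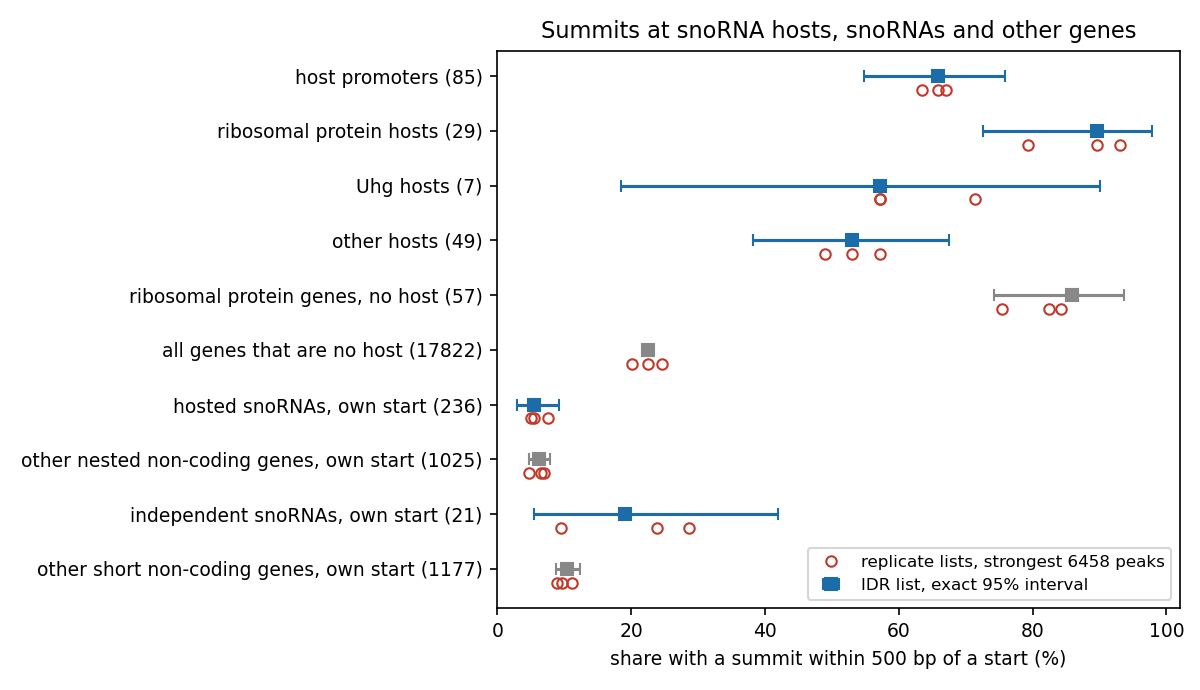
Share of genes with a peak summit within 500 bp of a start (x axis, %) for snoRNA hosts, snoRNAs and other genes (y axis, number of genes in brackets). Squares show the IDR list with exact 95% intervals and circles the strongest 6458 peaks of each of the 3 replicates. Hosts lie at 65.9% in the IDR list and hosted snoRNAs at their own start at 5.51%.

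The strongest host promoter was that of RpS20, which encodes a protein of the small ribosomal subunit and hosts 2 snoRNAs. Its peak (3R, 20821679 to 20822762, dm6) ranked 15 in the IDR list and 14, 15 and 16 in replicates 1, 2 and 3, with its summit 23 bp upstream of the start site. The peak also lay within 500 bp of a start of CG17271, and the peak list cannot tell which of the starts it belongs to. Next came Dys, the dystrophin gene (rank 35; 70, 41 and 34 in replicates 1, 2 and 3), Stt3A, a subunit of the enzyme that attaches glycans to proteins (rank 131; 160, 145 and 129), and tou (rank 279; 950, 214 and 188). RpL23A, with 4 snoRNAs, ranked 323 (415, 364 and 248 in replicates 1, 2 and 3), and RpL30, with 1 snoRNA, ranked 373 (930, 302 and 328). These 6 genes lay among the strongest 1000 peaks of every replicate. RpL14, at rank 441, and the non-coding host Uhg4, at rank 474 (841, 466 and 358), completed the 8 hosts among the 500 strongest IDR peaks. As at RpS20, a start of another gene lay within 500 bp of the summit at Dys (Scsalpha2), Stt3A (bves) and RpL14 (Nelf-E). The Stt3A summit lay 393 bp upstream of the Stt3A start. These peaks cannot be assigned to the host over its neighbour.

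The start windows of 3 of these ribosomal protein hosts, from 130 bases before to 20 bases after the canonical start on the gene's strand, are shown because the summits lay inside them. Capitals mark sequence words searched for below, which are the TCT initiator (C or T followed by CTTTC or CTTTT, within 10 bases of the start, sense strand), the motif 1 core GGTCACAC, and CGATA, the core of the DNA replication-related element (DRE). Sequence was read from the dm6 genome.
RpS20 at chr3R:20822051-20822200, plus strand: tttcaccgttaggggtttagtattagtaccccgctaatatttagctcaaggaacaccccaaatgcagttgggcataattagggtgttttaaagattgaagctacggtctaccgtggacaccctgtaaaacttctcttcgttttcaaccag
RpL23A at chr3L:1668635-1668784, minus strand: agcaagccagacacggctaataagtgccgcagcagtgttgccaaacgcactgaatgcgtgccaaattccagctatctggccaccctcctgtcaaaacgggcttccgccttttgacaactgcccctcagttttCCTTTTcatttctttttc
RpL30 at chr2L:19009218-19009367, minus strand: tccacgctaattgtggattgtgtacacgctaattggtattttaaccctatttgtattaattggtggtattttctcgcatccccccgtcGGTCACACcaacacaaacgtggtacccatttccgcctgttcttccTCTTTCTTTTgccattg
RpL30 held both a motif 1 core and TCT initiators, RpL23A a TCT initiator, and RpS20 none of the marked words.

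The 56 bound hosts ranked between 15 and 6315 of the 6458 IDR peaks, with a median rank of 1791, against a median of 2839 for the 4021 bound genes that host no snoRNA. The median rank was 1564 for the 26 bound ribosomal protein hosts, 1892 for the 4 bound Uhg genes and 2362 for the 26 bound other hosts. Bound ribosomal protein genes that host no snoRNA had a median rank of 1670. Of the 56 bound hosts, 46 had a summit among the strongest 6458 peaks of all 3 replicates, 9 of 2 and 1 of 1. The remaining genes of the 25 strongest host promoters ranked from 576 to 1568 and comprised Irbp, RpL13A, hts, RpL11, RpS4, drn, RpL28, RpS16, Msp300, SC35, RpS29, RpL27A, RpL17, Uhg2, sta, RpL4 and RpL22. Of these 25, 15 encode ribosomal proteins, counting sta, 2 are Uhg genes and 8 are other genes.

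Several hosts with many snoRNAs were bound in the middle of the range. Arpc2, a subunit of the Arp2/3 complex that nucleates actin branches, hosts 17 snoRNAs, the largest number of any host, and ranked 2108 (1501, 3674 and 2493 in replicates 1, 2 and 3). RpS5a, with 14 snoRNAs, ranked 3373 (3306, 1947 and 6972), and Uhg5, with 11, ranked 2480 (4198, 2229 and 2809). The translation factor gene kra, with 8, ranked 3195 (3706, 3259 and 2873). RpS7 (7 snoRNAs, rank 2439), RpL3 (4, rank 1616), lola (4, rank 1734), Uhg8 (3, rank 2269) and the poly(A)-binding protein gene pAbp (3, rank 2485) were also bound. Hrb98DE, an RNA-binding protein of the hnRNP family with 7 snoRNAs, ranked 6209 (5355, 7316 and 5084) and Nop60B, the fly dyskerin, with 7, ranked 4902 (4344, 6512 and 5120). Both lay outside the strongest 6458 peaks of replicate 2.

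Start windows of Uhg2, Arpc2 and RpS5a, which stand for the 3 host classes, follow on the gene's strand, with 150 bases before the start for Uhg2 and Arpc2, 130 for RpS5a, and 20 after. Capitals mark the same words.
Uhg2 at chr2L:9894984-9895153, minus strand: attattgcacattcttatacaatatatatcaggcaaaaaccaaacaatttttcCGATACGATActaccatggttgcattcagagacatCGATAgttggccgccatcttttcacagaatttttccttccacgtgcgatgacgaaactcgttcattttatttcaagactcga
Arpc2 at chr2L:20416907-20417076, plus strand: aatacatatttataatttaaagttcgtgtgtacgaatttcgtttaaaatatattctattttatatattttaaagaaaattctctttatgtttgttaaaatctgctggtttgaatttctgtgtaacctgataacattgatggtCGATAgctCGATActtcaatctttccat
RpS5a at chrX:17148245-17148394, minus strand: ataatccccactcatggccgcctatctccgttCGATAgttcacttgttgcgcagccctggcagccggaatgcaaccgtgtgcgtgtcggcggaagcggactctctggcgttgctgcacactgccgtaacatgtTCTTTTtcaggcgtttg
Each of the 3 windows held at least 1 CGATA, on either strand, and the one of RpS5a also held a TCT initiator.

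**Figure D2:**
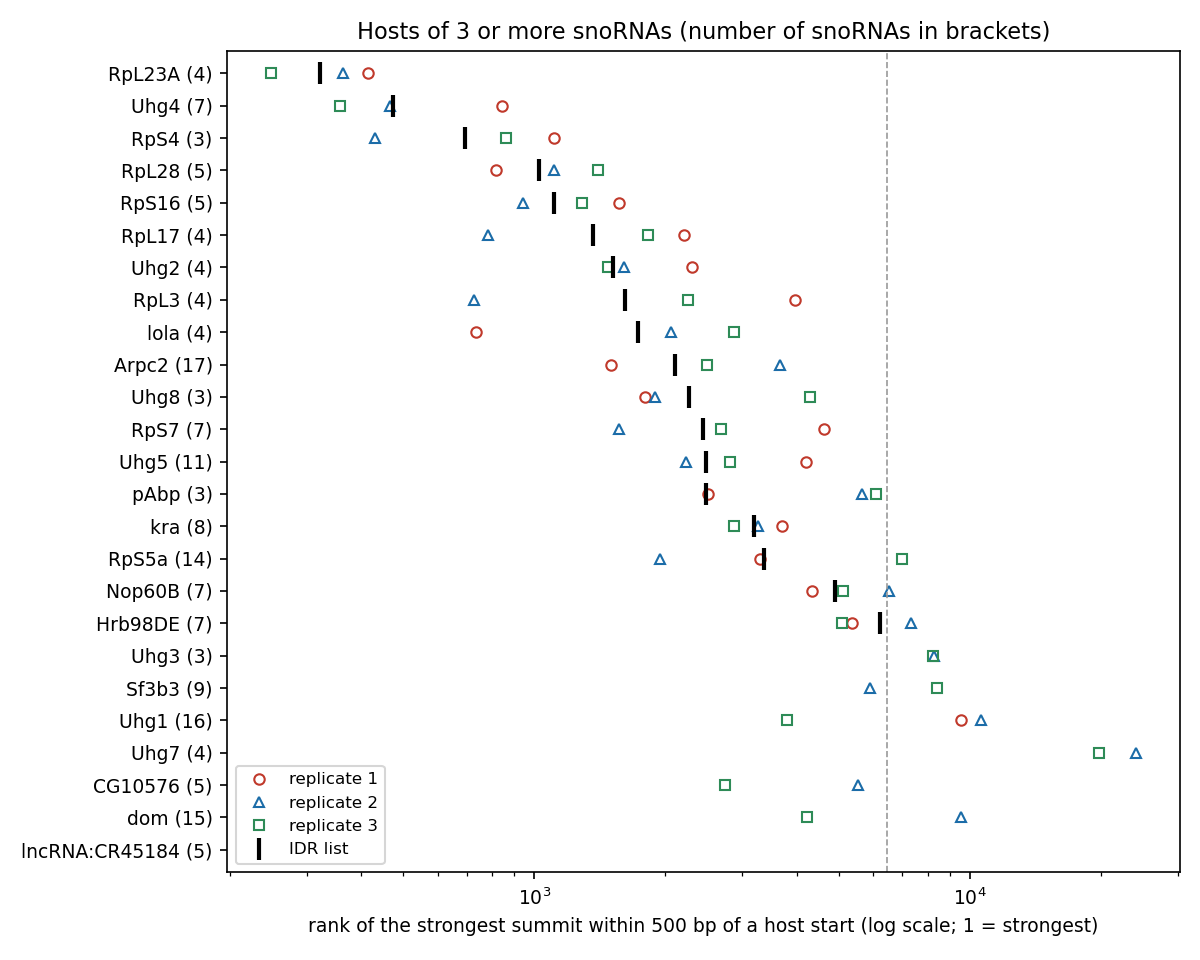
Rank of the strongest summit within 500 bp of a host start (x axis, log scale, 1 is the strongest) for the 25 hosts with 3 or more snoRNAs (y axis, number of snoRNAs in brackets). Black bars are the IDR list and open symbols the full lists of replicates 1, 2 and 3, with a symbol missing where a list had no summit, and the dashed line marks rank 6458. The 18 bound hosts run from RpL23A at rank 323 to Hrb98DE at rank 6209, and lncRNA:CR45184 has no summit in any list.

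The 29 unbound hosts included some of the richest in snoRNAs. Of these, 13 had a summit in the pooled list and 16 had none. Uhg1, with 16 snoRNAs, missed the window by little, since its nearest IDR summit lay 512 bp from the start site. It had a pooled summit at rank 12978 and ranks of 9518, 10615 and 3799 in replicates 1, 2 and 3. The chromatin remodelling gene dom, with 15 snoRNAs, had a summit in replicates 2 and 3 alone, at ranks 9547 and 4234, and none in the pooled list. The splicing factor gene Sf3b3, with 9, had a pooled summit at rank 8486. CG10576, with 5, had summits at ranks 5530 and 2740 in replicates 2 and 3, none in replicate 1 and none in the pooled list. The other unbound hosts with 3 or more snoRNAs were Uhg3 (pooled rank 8178), Uhg7 (pooled rank 26491) and lncRNA:CR45184, which had no summit in any list.

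After Uhg1, the unbound hosts with an IDR summit nearest to a start were CG3902 at 543 bp, x16 at 1164 bp, lncRNA:CR42491 at 1419 bp and Uhg7 at 1444 bp. For x16, lncRNA:CR42491 and Uhg7, that summit was the promoter summit of an overlapping bound host, nop5, RpL22 and RpL23A in turn. The 3 unbound ribosomal protein hosts were RpS9, RpL5 and RpL15. RpS9 had a pooled summit at rank 7701 and ranks of 8627, 4487 and 9533 in replicates 1, 2 and 3. RpL15 had a pooled summit at rank 12709 and a replicate 1 summit at rank 6243. RpL5 had no pooled summit and a summit at rank 7884 in replicate 1 alone. The nearest IDR summit lay 367345 bp from RpL5 and 4268861 bp from RpL15, against 1603 bp from RpS9.

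Summits at host promoters lay mostly upstream of the start site, and closest to it in the ribosomal protein hosts. No test was made of the differences in position. Over the 56 bound hosts the median position was 85 bp upstream (quartiles 182 and 22 bp upstream), and 48 (85.7%) were upstream, against 83.3% of bound genes that host no snoRNA. In ribosomal protein hosts the median was 29.5 bp upstream, and 24 of 26 summits lay within 100 bp of the start. Ribosomal protein genes that host no snoRNA had a median of 39.0 bp upstream, with 37 of 49 within 100 bp. In other hosts the median was 156 bp upstream, with 7 of 26 within 100 bp, against a median of 125 bp upstream for the other bound protein-coding genes that host no snoRNA. The 4 bound Uhg genes had summits between 257 and 79 bp upstream. A start of another gene on the opposite strand lay within 500 bp of the summit for 30 of the 56 bound hosts (53.6%), against 54.0% of bound genes that host no snoRNA. On either strand, a start of another gene that is no snoRNA gene lay there for 33 bound hosts. For those 33, the peak cannot be assigned to the host over its neighbour. The 56 bound hosts had 55 distinct peaks, since RpS6 and the overlapping pseudogene CR33222 had the same one (rank 5794).

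**Figure D3:**
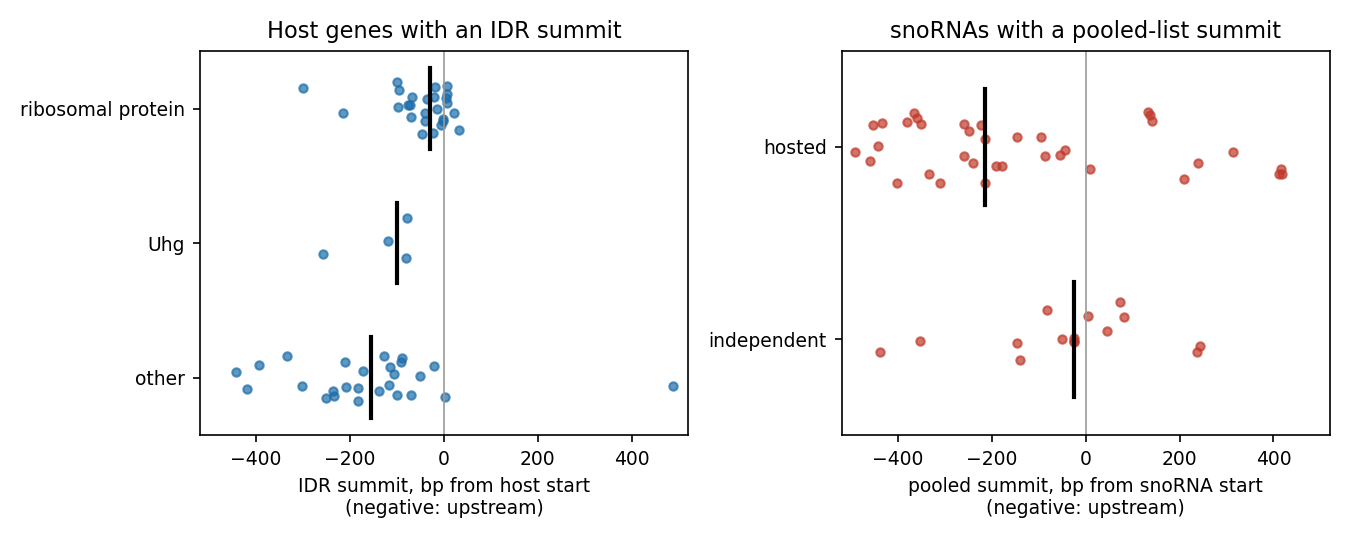
Position of summits relative to the nearest host start (left, IDR list, the 56 bound hosts by class) and relative to the snoRNA's own start (right, pooled list, 36 hosted and 15 independent snoRNAs), in bp, negative upstream. Each point is a gene, black bars are medians, and the vertical scatter has no meaning. Ribosomal protein hosts cluster near the start with a median of 29.5 bp upstream, other hosts lie further upstream with a median of 156 bp.

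For a hosted snoRNA the host promoter, not the start of the snoRNA itself, was the usual place of a summit. Of the 236 hosted snoRNAs, 167 (70.8%, interval 64.5 to 76.5%) had an IDR summit at a host start site, against 13 (5.51%, interval 2.97 to 9.24%) at their own start. Among the 1025 other non-coding genes nested in a gene on the same strand, the background at the own start was 6.15% in the IDR list. The share of these genes with a summit at a start of the gene around them was not computed. Whether 70.8% is particular to snoRNAs was therefore not tested. The host-start share exceeded the own-start share by 64.4, 63.1 and 74.2 percentage points in replicates 1, 2 and 3 (67.2 ± 6.03, SD, n = 3; exact two-sided sign-flip permutation test, p = 0.25, the smallest possible). The snoRNAs of 1 host share its promoter, so the 236 are not independent of each other. The host-start count was 105, 98 and 108 of 236 when replicates 1, 2 and 3 were left out in turn, and the own-start count was 8 without replicate 2. In the pooled list, 36 hosted snoRNAs (15.3%) had a summit at their own start, against a background of 23.9% of nested non-coding genes, and only 24 of the 51 snoRNAs with a pooled summit kept it without replicate 2 or without replicate 3.

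Of the 13 hosted snoRNAs with a direct IDR summit, 11 lay near a start of their host and had a summit that also counted for that start. Summits can be shared, and Psi28S-2949 and Or-aca5 had the same one. The 11 include Psi18S-1295 in RpS20, 429 bp from the host start, and Me18S-A1576 in Uhg2, 96 bp from it. Among the 35 snoRNAs within 500 bp of a host start, 11 (31.4%) had a direct IDR summit. Between 500 and 1000 bp none of 48 had one, between 1000 and 2000 bp none of 72, and beyond 2000 bp 2 of 81 did (2.47%). Host-start summits were present for 27 of the 35 snoRNAs within 500 bp (77.1%), 40 of 48 at 500 to 1000 bp (83.3%), 56 of 72 at 1000 to 2000 bp (77.8%) and 44 of 81 beyond that (54.3%). The median distance from a hosted snoRNA to the nearest host start was 1422 bp.

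Both of these snoRNAs are shown because they carry the defining boxes of the 2 classes and lie near the start of a bound host. Capitals mark the ACA box of the H/ACA snoRNA, and the C box (TGATGA) and D box (CTGA) of the C/D snoRNA.
Psi18S-1295 at chr3R:20822610-20822749, plus strand: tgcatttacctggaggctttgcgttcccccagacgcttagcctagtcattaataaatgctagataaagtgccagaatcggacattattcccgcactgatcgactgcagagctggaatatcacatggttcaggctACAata
Me18S-A1576 at chr2L:9894795-9894907, minus strand: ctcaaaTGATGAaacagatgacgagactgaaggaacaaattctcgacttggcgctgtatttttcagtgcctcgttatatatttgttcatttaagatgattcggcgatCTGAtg
Across the annotation, 103 of 106 pseudouridylation guides held ACA in their last 8 bases, and 61 of 78 methylation guides held TGATGA in their first 30 bases and 75 CTGA in their last 25. The names therefore match the sequence class for most guides. The match was poorer for orphans. In the same stretches, 5 of 15 orphan C/D snoRNAs held TGATGA and 14 CTGA, and 5 of 9 orphan H/ACA snoRNAs held ACA.

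**Figure D4:**
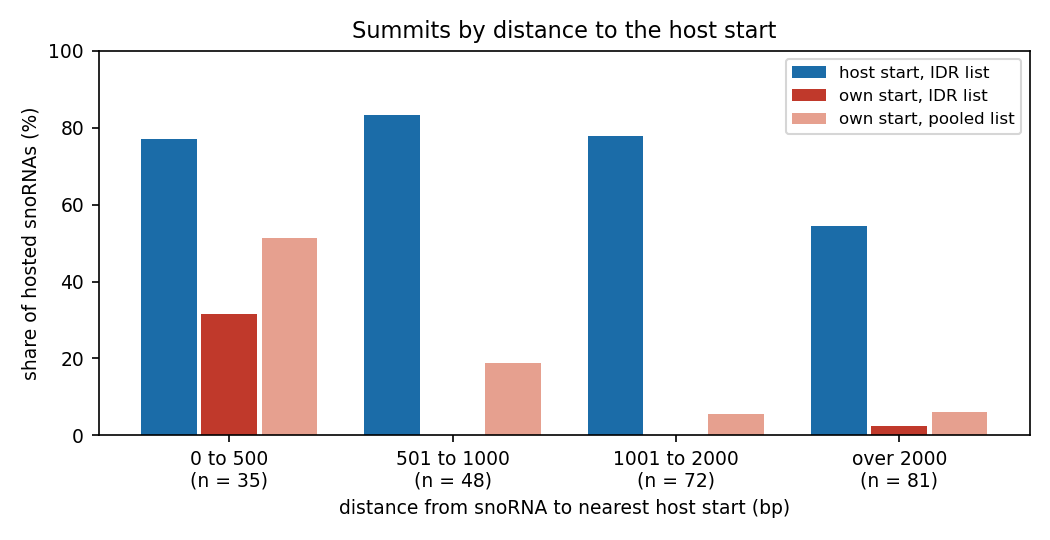
Share of hosted snoRNAs (y axis, %) with an IDR summit at a host start, an IDR summit at their own start or a pooled-list summit at their own start, by distance from the snoRNA to the nearest host start (x axis, bp, number of snoRNAs in brackets). Host-start summits stay at 54.3% or more, and own-start IDR summits are at 31.4% within 500 bp and 2.47% beyond 2000 bp.

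At 2 hosted snoRNAs the direct IDR summit lay away from every host start. The methylation guide Me18S-C1968 (2R, 22197269 to 22197374, minus strand, dm6) lies in an intron of Swim, a host that was not bound and had no pooled summit. Its peak (22197214 to 22197643, rank 4171; 7600, 5433 and 2725 in replicates 1, 2 and 3) had a summit that lay 55 bp upstream of the snoRNA and 4079 bp from the nearest annotated start of a gene other than a snoRNA gene. The 300-base window from 250 bases before to 50 after its start held the word AATTCCCAA, taken here as the core of PSEA, the promoter element of small nuclear RNA (snRNA) genes in flies, 62 bases upstream of the start. The orphan snoRNA Or-CD4 (2R, 14624253 to 14624330) lies in Uhg5, and its summit (rank 2836; 4786, 3520 and 2154) lay 418 bp downstream of the snoRNA start and 3070 bp from the nearest start of Uhg5. That summit, at 14624671, lay beyond the end of Uhg5 at 14624498, and so outside both the snoRNA and its host. The Me18S-C1968 summit lay among the strongest 6458 peaks of replicates 2 and 3, and the Or-CD4 summit among those of all 3.

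Most independent snoRNAs had a pooled summit at their own start, but few had an IDR summit there. The interval of their IDR share included the share of other short non-coding genes given below. In the IDR list, 13 of 236 hosted snoRNAs (5.51%) and 4 of 21 independent snoRNAs (19.0%, interval 5.45 to 41.9%) had a summit at their own start. Among the 1177 non-coding genes that are no longer than the longest snoRNA and lie in no gene on the same strand, a background that holds 231 tRNA and 97 rRNA genes, 10.5% had an IDR summit and 35.2% a pooled summit. In the pooled list the share was 15.3% (interval 10.9 to 20.5%) of hosted and 71.4% (15 of 21, interval 47.8 to 88.7%) of independent snoRNAs. In the strongest 6458 peaks of replicates 1, 2 and 3, the hosted share minus the independent share was -4.02, -16.2 and -23.5 percentage points (mean -14.6 ± 9.84, SD, n = 3; exact two-sided sign-flip permutation test, p = 0.25, the smallest possible). The count of 4 became 2 without replicate 2 and 2 without replicate 3.

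The 4 independent snoRNAs with an IDR summit were Or-ACA6 (rank 3911), 2 neighbours on 2R that are named by position only and share 1 peak (rank 4333), and snoRNA:185 (rank 4469). The neighbours begin at 13557850 and 13558055 on the minus strand. For Or-ACA6 the summit lay 439 bp upstream, at ranks 3637, 4048 and 4993 in replicates 1, 2 and 3. The shared peak of the pair lay 343 bp from a start of CG13334 and ranked 19710, 3752 and 3088. The summit at snoRNA:185 lay 24 bp upstream of its start and ranked 4750, 5970 and 3157. It was the only one of the 4 within 100 bp of the snoRNA start, and a tRNA gene for glutamate began 355 bp from it.

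Pooled summits at independent snoRNAs sat close to the snoRNA start. A pooled summit lay within 100 bp of the own start for 8 of 236 hosted snoRNAs (3.39%, interval 1.48 to 6.57%) and for 10 of 21 independent snoRNAs (47.6%, interval 25.7 to 70.2%). The share was 5.17% of other nested non-coding genes and 10.2% of the other short non-coding genes outside hosts. Closest were the U3 gene U3:54Aa, with a summit 6 bp downstream (rank 29131), Psi28S-3342 and snoRNA:185, each with a summit 24 bp upstream (ranks 10502 and 4469), and Psi18S-176, 25 bp upstream (rank 7839). Of the other U3 genes, U3:54Ab had a summit 50 bp upstream (rank 10150) and U3:9B one 82 bp downstream (rank 16174), so that all 3 copies had one. A leucine tRNA gene began 322 bp from the summit at U3:54Aa, and another began 267 bp from the summit at U3:54Ab. Reads of similar U3 copies could be shared between them by the authors' mapping, so their peaks are uncertain. For 7 of the 15 independent snoRNAs with a pooled summit, no start of a gene other than a snoRNA gene lay within 500 bp of the summit.

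These weak peaks repeated unevenly. In the full replicate lists, 8 of the 21 independent snoRNAs had a summit in all 3 replicates, 5 in 2, 3 in 1 and 5 in none. Only 15 of the 21 had a pooled summit, so a count of none need not be a peak that failed to repeat. Of the 236 hosted snoRNAs, 20 had a summit at their own start in all 3 replicates, 20 in 2, 42 in 1 and 154 in none. Psi28S-3342 had ranks of 28991, 13900 and 10706 in replicates 1, 2 and 3, and U3:9B had ranks of 9429 and 23963 in replicates 1 and 3 and no summit in replicate 2. Psi18S-176 had none in replicate 1 and ranks of 8261 and 5817 in replicates 2 and 3. U3:54Aa had a summit in replicate 2 alone, at rank 22126. Of the 21, 10 lay inside a gene on the opposite strand, and 4 of these had a pooled summit. The other 11 lay inside no gene, and all of them had one. The other short non-coding genes were not split in this way.

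For 5 independent snoRNAs the pooled summit lay within 100 bp of the own start, with no start of a gene other than a snoRNA gene within 500 bp of the summit. The start windows of 4 of them, from 100 bases before to 50 after the start, are shown for this reason, and that of the fifth, Or-aca4, is not shown. Capitals mark the PSEA core AATTCCCAA.
Psi28S-3342 at chrX:5524416-5524565, minus strand: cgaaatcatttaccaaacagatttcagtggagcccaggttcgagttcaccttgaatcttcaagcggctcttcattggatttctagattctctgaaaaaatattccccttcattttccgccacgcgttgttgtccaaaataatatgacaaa
U3:9B at chrX:10348025-10348174, plus strand: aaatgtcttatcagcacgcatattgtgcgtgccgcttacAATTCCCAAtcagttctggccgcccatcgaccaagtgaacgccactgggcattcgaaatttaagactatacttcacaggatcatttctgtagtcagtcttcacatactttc
Me18S-A1806 at chr3L:7639617-7639766, plus strand: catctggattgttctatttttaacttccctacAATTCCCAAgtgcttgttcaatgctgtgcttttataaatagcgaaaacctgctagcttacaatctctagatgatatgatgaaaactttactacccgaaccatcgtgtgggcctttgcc
Psi18S-301 at chr3R:20574806-20574955, plus strand: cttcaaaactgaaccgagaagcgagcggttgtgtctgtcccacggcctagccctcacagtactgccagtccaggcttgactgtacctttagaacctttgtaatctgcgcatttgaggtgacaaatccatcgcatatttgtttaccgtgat
The word began 61 bases before the start of U3:9B and 68 before that of Me18S-A1806, and the windows of Psi28S-3342, Psi18S-301 and Or-aca4 did not hold it.

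In the 300-base windows, on either strand, the PSEA core was present at 3 of 236 hosted (1.27%) and 3 of 21 independent snoRNAs (14.3%), against 0.726% of genes other than snoRNA genes and 71.9% of the 32 snRNA genes. The third independent snoRNA was snoRNA:185, where the word began 154 bases before the start. In Me18S-C1968, one of the hosted snoRNAs, it began 62 bases before the start, between the positions in U3:9B and Me18S-A1806. These 4 snoRNAs each had a pooled summit within 100 bp of their start. The other 2 hosted snoRNAs with the word were Me18S-U1356a and Me18S-U1356b in Uhg8, where it began 4 and 243 bases before the start. These are 1 occurrence that falls in both windows, so the 3 hosted snoRNAs hold 2 separate occurrences. Neither had a pooled summit.

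Promoter words were counted in the same windows at the canonical start of each host, with no test of any difference, the TCT initiator within 10 bases of the start on the gene's strand and the other words on either strand. The TCT initiator, a start-site element of genes of the translation machinery, was present at 16 of 29 ribosomal protein hosts (55.2%), 2 of 7 Uhg genes (28.6%) and 4 of 49 other hosts (8.16%), against 63.2% of ribosomal protein genes that host no snoRNA and 2.8% of genes other than snoRNA genes. The full DRE (TATCGATA), an element of housekeeping promoters, was present at 27.6% of ribosomal protein hosts, at none of the 7 Uhg genes and at 18.4% of other hosts, against 29.8% of ribosomal protein genes that host no snoRNA and 7.28% of genes other than snoRNA genes. The DRE core (CGATA), which the full DRE contains, was present at 57.6% of all hosts and 69% of ribosomal protein hosts, against 71.9% of ribosomal protein genes that host no snoRNA and 44.1% of genes other than snoRNA genes. The motif 1 core (GGTCACAC), another element of housekeeping promoters, was present at 11.8% of all hosts and 13.8% of ribosomal protein hosts, against 15.8% of ribosomal protein genes that host no snoRNA and 6.08% of genes other than snoRNA genes. The GAGA word (GAGAG) was present at 32.9% of all hosts, against 29.9% of genes other than snoRNA genes. By class it was present at 17.2% of ribosomal protein hosts, at none of the 7 Uhg genes and at 46.9% of other hosts. Among ribosomal protein genes that host no snoRNA its share was 17.5%. The TATA word (TATAAA) occurred at 6 of 7 Uhg genes and at 43.5% of all hosts, against 43.7% of genes other than snoRNA genes. The DRE was present at 21.4% of bound and 17.2% of unbound hosts, and the TCT initiator was present at 30.4% of bound and 17.2% of unbound hosts. These shares describe the reference sequence, and a match is not a mapped binding site.

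**Figure D5:**
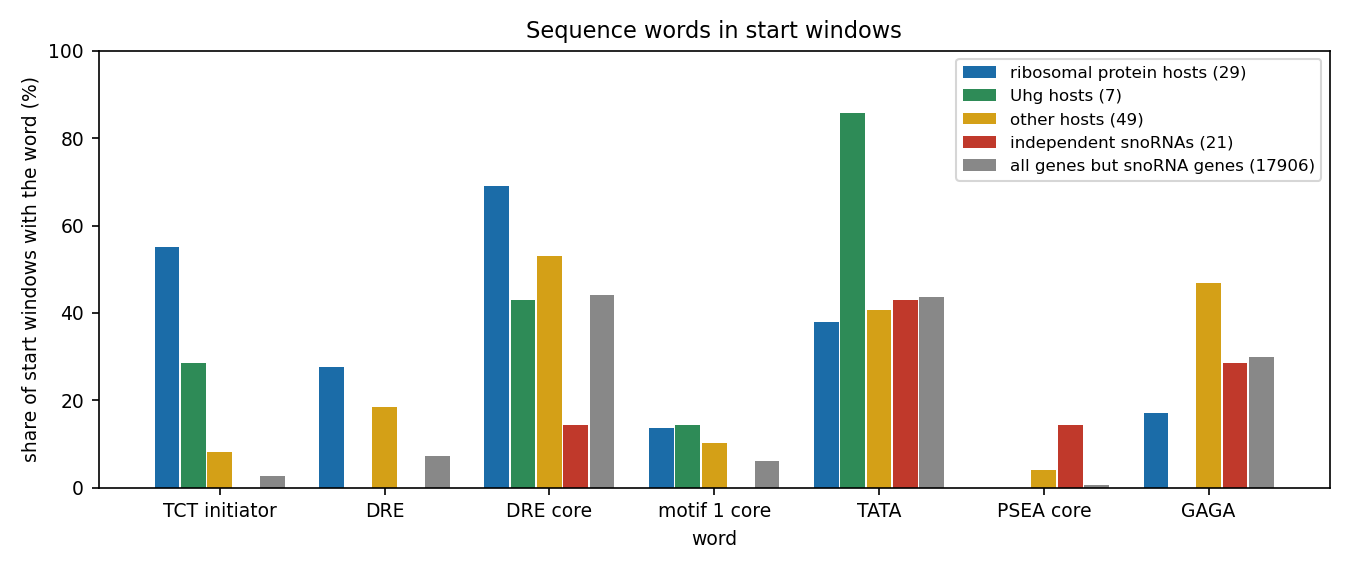
Share of 300-base start windows (y axis, %, from 250 bases before to 50 after the canonical start) that hold each sequence word (x axis) at ribosomal protein, Uhg and other hosts, independent snoRNAs and all genes other than snoRNA genes (number in brackets). The TCT initiator is present at 55.2% of ribosomal protein hosts and 2.8% of all genes, and the PSEA core at 14.3% of independent snoRNAs and 0.726% of all genes.

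Most genes for the proteins that assemble and work with snoRNAs were bound. Of 20 such genes found in the annotation, 16 (80.0%, interval 56.3 to 94.3%) were bound, against 22.8% of genes other than snoRNA genes. The share of the hosts was 65.9% (interval 54.8 to 75.8%). The 2 intervals overlap, and the difference was not tested. The strongest were pont, a helicase of the R2TP assembly machinery (rank 308; 209, 411 and 343 in replicates 1, 2 and 3), and Gar1, an H/ACA core protein (rank 465; 952, 557 and 292). The other H/ACA core genes were bound at rank 2037 (NHP2), 4902 (Nop60B) and 6202 (Nop10). Of the C/D core genes, nop5 ranked 2239, the fibrillarin gene Fib 2503, Nop56 4834 and hoip 5223. The other bound genes were CG13097 (1833), Rrp6 (2030), Non3 (2913), coil (4448), Nufip (4522), Nopp140 (4662) and rept (4678). The unbound genes were CG10341, with a pooled summit at rank 8899, Tgs1, U3-55K and 1 further gene, the last 3 with no pooled summit.

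Among these genes, Fib, nop5 and Nop60B are themselves snoRNA hosts, and all 3 were bound. Of the 17 genes that host no snoRNA, 13 were bound. The count of 16 became 10 without replicate 2 and 8 without replicate 3.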

How the data were processed

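Analysis began from ChIP-seq peak lists on the dm6 build, per the labels: 1 for each of the 3 replicates, 1 pooled and 1 thresholded by IDR. The authors' caller gave every deposited peak its signal, which served here only to rank the peaks of a list. It also gave a −log10 q-value, deposited beside the signal and not used. No aligner or peak calling program is named in the sources used here.

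Genes, start sites and snoRNAs came from Ensembl release 115 (BDGP6.54, dm6 coordinates). Counts used Python 3.11.15, pandas 2.3.3 and SciPy 1.17.1, with a summit window of 500 bp. The spread comes from the strongest 6458 peaks of each replicate list, and p-values measure only the spread between these 3 lists. Code was tested on simulated peak lists. Named genes are the 25 strongest bound hosts, hosts with 3 or more snoRNAs, independent snoRNAs with an IDR summit, direct summits away from host starts, the 5 unbound hosts nearest to a summit, unbound ribosomal protein and Uhg hosts, and bound genes for snoRNA-associated proteins. Other independent snoRNAs were named after their values were seen, as were the comparison sets of short non-coding genes and the 100 bp distance. Of 30 symbols listed for such proteins, 20 matched the annotation. The members, lists and words were chosen with earlier results of these data known.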

Additional observations from a re-analysis of the deposited data

How the results depend on the processing

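Of 85 recomputed counts, 51 stayed within 1.5 times the reported count and 34 did not. The cause was not tested beyond what each setting changes by construction. Leaving out each replicate in turn kept only peaks matched by at least 50% of both lengths in both other replicates. It gave 31 to 38 bound hosts, 8 to 10 hosted snoRNAs with an IDR summit at their own start, 2 to 4 independent ones, 98 to 108 hosted snoRNAs with one at a host start, 1 to 2 hosted snoRNAs with a direct summit away from host starts, 8 to 12 bound genes for snoRNA-associated proteins, and 24 to 38 snoRNAs with a pooled summit. Bound shares of genes other than snoRNA genes under the same settings were 12 to 14.6%.

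With a window of 250 bp, own-start IDR summits numbered 5 at hosted and 2 at independent snoRNAs, and 1 direct summit lay away from host starts. With a window of 1000 bp, a choice added after seeing the data, they numbered 54 at hosted snoRNAs, 7 lay away from host starts and 110 snoRNAs had a pooled summit. When the peak body had to cover the start, 3 hosted and 2 independent snoRNAs had an IDR peak at their start, 1 away from host starts, and 29 snoRNAs had a pooled peak. Among the 3229 strongest IDR peaks, 0 independent snoRNAs, 1 direct summit away from host starts and 8 genes for snoRNA-associated proteins remained bound. With protein-coding hosts only, 8 hosted and 9 independent snoRNAs had an own-start IDR summit, 1 of them hosted and away from a host start. Without ribosomal protein hosts, also added later, 30 hosts were bound in the IDR list and 41 in the pooled list, 96 hosted snoRNAs had a host-start summit and 8 an own-start summit. Taking hosts by any overlap, the shortest host alone, the canonical start alone or starts of spanning transcripts left each count it bears on within 1.5 times. The number of peaks a list holds is fixed, so depth limits could not be assessed. No paired analysis was possible because there is only 1 group.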
